A study of Arabis alpina with 9 samples.

Results

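The membrane transporter genes of the alpine perennial Arabis alpina are described here, namely those in the authors' lists of mutant against control whose name marks a transporter, exchanger or channel. They were found by the words transporter, antiporter, exchanger, channel or UMAMIT in the deposited gene name, leaving out 4 Arabidopsis genes (GPT2, SUC2, VIT1 and KAT1). That gave 30 of the 1487 distinct gene IDs in the 6 deposited lists, and of the 34220 gene entries in the count table. Of the 30 names, 26 held the word transporter, 3 channel, 1 exchanger and 0 antiporter, and 6 named a UMAMIT protein.

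The study asks how AaTFL1, the counterpart of an Arabidopsis floral repressor, takes part in the control of flowering. RNA was sequenced from the eop089 mutant, given in the labels by its line name only, in the accession Pajares under long days. The 9 libraries came from leaves at 5 weeks of age (the fifth and the sixth leaf of the plant), from dissected shoot apices at 5 weeks and from dissected shoot apices at 3 weeks, with 3 libraries each. Every library carries the mutation, so a contrast between groups is one of organ or of age within the mutant, and the control enters only through the authors' lists.

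Transporters and channels carry ions, sugars, amino acids and metals across the plasma membrane and the vacuolar membrane. In leaves they load and unload the veins, import amino acids and metals into mesophyll cells and store calcium, iron or sulphate in vacuoles. Apices import most of these solutes from older organs. Roles given below are those known from Arabidopsis thaliana.

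The libraries held 11859813 to 13382460 counts in genes. Levels are CPM, counts scaled by library size, with library sizes adjusted by TMM, a method that evens out the bulk of genes. They are given in the order of replicates 1, 2 and 3. Scaled library sizes were 0.693 to 0.704 of the total counts in the leaf, 1.22 to 1.26 in 5-week apices and 1.15 to 1.16 in 3-week apices. CPM is not divided by gene length, so levels are compared between groups and not between genes. The leaf marker CA1, a carbonic anhydrase gene, stood at 8475 to 8950 CPM in the leaf, 0.322 to 0.991 CPM at the 5-week apex and 4.90 to 32.4 CPM at the 3-week apex. None of the 10 meristem markers of the marker list had a paired ID in the lists, and they were not analysed here. The labels do not tell whether replicates are separate plants. The p-values therefore measure spread among these samples only, and that spread may be technical.

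Transporter genes were listed lower in the mutant leaf more often than higher. Against the control, 21 of them were lower and 3 higher in the mutant leaf in the authors' deposited table. For the 5-week apex the authors' deposited table held 1 lower and 0 higher, beside 50 lower and 66 higher of all genes. For the 3-week apex it held 5 higher and 1 lower (83.3% higher). Of all genes listed there 242 were higher and 85 lower (74% higher). Lower genes therefore made up 87.5% of the transporter genes listed in the leaf, beside 66.9% of all genes listed there (801 of them lower and 397 higher). These values chose the genes and are given as a description, without a test.

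**Figure D1:**
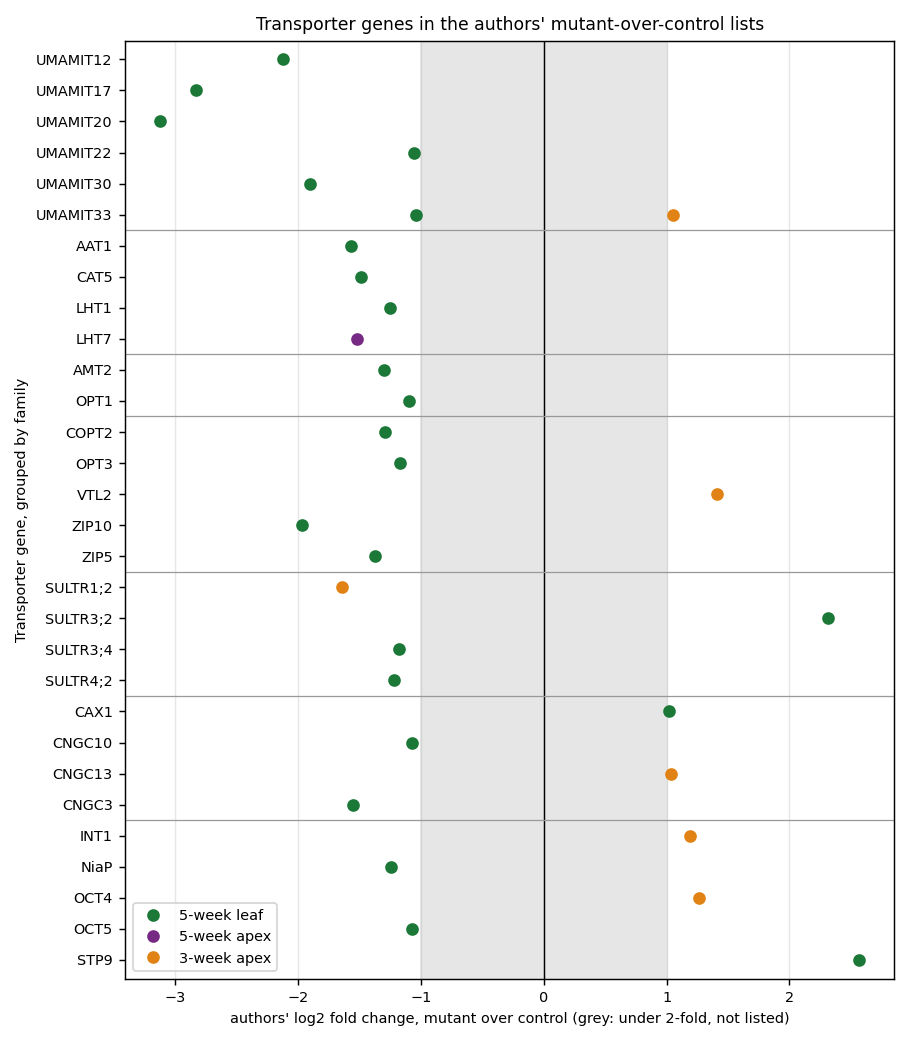
Authors' log2 fold change of the mutant over its control (x axis) for the 30 transporter genes (y axis, grouped by family), with 1 point for each listing and the setting in colour. Leaf points lie left of 0 for 21 genes and right of 0 for CAX1, STP9 and SULTR3;2, and only UMAMIT33 has 2 points.

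All 6 listed UMAMIT genes, whose family moves amino acids out of cells and across vacuolar membranes, were lower in the mutant leaf. UMAMIT20 (Aa_G151150) and UMAMIT17 (Aa_G151160) stood at 0.115 and 0.141 of control by the authors' deposited table, UMAMIT12 (Aa_G249340) at 0.23 and UMAMIT30 (Aa_G624580) at 0.269. UMAMIT22 (Aa_G169570) and UMAMIT33 (Aa_G200880) were nearest the 2-fold limit of the lists, at 0.48 and 0.486 of control by the authors' deposited table. UMAMIT33 was the only transporter gene listed in more than 1 setting, and the directions were opposite. At the 3-week apex it was higher in the mutant, 2.07-fold, with an adjusted p of 8.87e-06 in the authors' deposited table, while in the leaf its adjusted p was 0.000237. Whether its change differs between the settings was not tested.

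The listed leaf genes for import of nitrogen compounds were lower too. CAT5 (Aa_G264050) and AAT1 (Aa_G37570), carriers of basic amino acids, stood at 0.357 and 0.338 of control by the authors' deposited table. LHT1 (Aa_G413240), which imports amino acids into mesophyll cells, was at 0.42 of the control, the ammonium importer gene AMT2 (Aa_G66230) at 0.405 and the oligopeptide transporter gene OPT1 (Aa_G441250) at 0.468 in the authors' deposited table. LHT7 (Aa_G395530), a relative of LHT1, was listed at the 5-week apex instead, at 0.349 of the control with an adjusted p of 0.000813 in the authors' deposited table.

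Metal transporter genes of the leaf showed the same direction in the lists. ZIP10 (Aa_G299270) and ZIP5 (Aa_G219010), of a family that imports zinc and iron, were at 0.256 and 0.387 of control by the authors' deposited table. The copper importer gene COPT2 (Aa_G88850) was at 0.409 and OPT3 (Aa_G49540), which loads iron into the phloem, at 0.444 in the authors' deposited table. VTL2 (Aa_G165050), a relative of vacuolar iron transporters, was listed at the 3-week apex only, 2.66-fold higher in the mutant by the authors' deposited table.

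Sulphate transporter genes were split. SULTR3;4 (Aa_G242040) and SULTR4;2 (Aa_G40360), whose protein releases sulphate from the vacuole, were lower in the mutant leaf, at 0.44 and 0.429 of control by the authors' deposited table. SULTR3;2 (Aa_G188740) was 4.96-fold higher in the same leaf, on only 14.67 mean normalized counts in the mutant and with an adjusted p of 0.0412 in the authors' deposited table. SULTR1;2 (Aa_G204300), the gene of a sulphate importer of roots, was lower at the 3-week apex, at 0.321 of the control on 6.84 mean normalized counts in the mutant, by the authors' deposited table.

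Among channels and the exchanger, CNGC3 (Aa_G196870) and CNGC10 (Aa_G325220), of the cyclic nucleotide-gated cation channels, were lower in the mutant leaf, at 0.343 and 0.477 of control by the authors' deposited table. CNGC13 (Aa_G67850), of the same family, was 2.06-fold higher at the 3-week apex by the authors' deposited table. CAX1 (Aa_G172150), the vacuolar exchanger that stores calcium in leaf cells, was 2.02-fold higher in the mutant leaf, just inside the limit, on 9761.01 mean normalized counts in the mutant by the authors' deposited table. The monosaccharide importer gene STP9 (Aa_G334790) was 5.95-fold higher in the mutant leaf, on 23.44 mean normalized counts in the mutant by the authors' deposited table. INT1 (Aa_G125430), which exports inositol from the vacuole, and OCT4 (Aa_G254090), a carrier of organic cations, were 2.28-fold and 2.4-fold higher at the 3-week apex by the authors' deposited table. Its relative OCT5 (Aa_G145320) and the nicotinate transporter gene NiaP (Aa_G290240) were lower in the leaf, at 0.476 and 0.422 of control by the authors' deposited table.

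**Figure D2:**
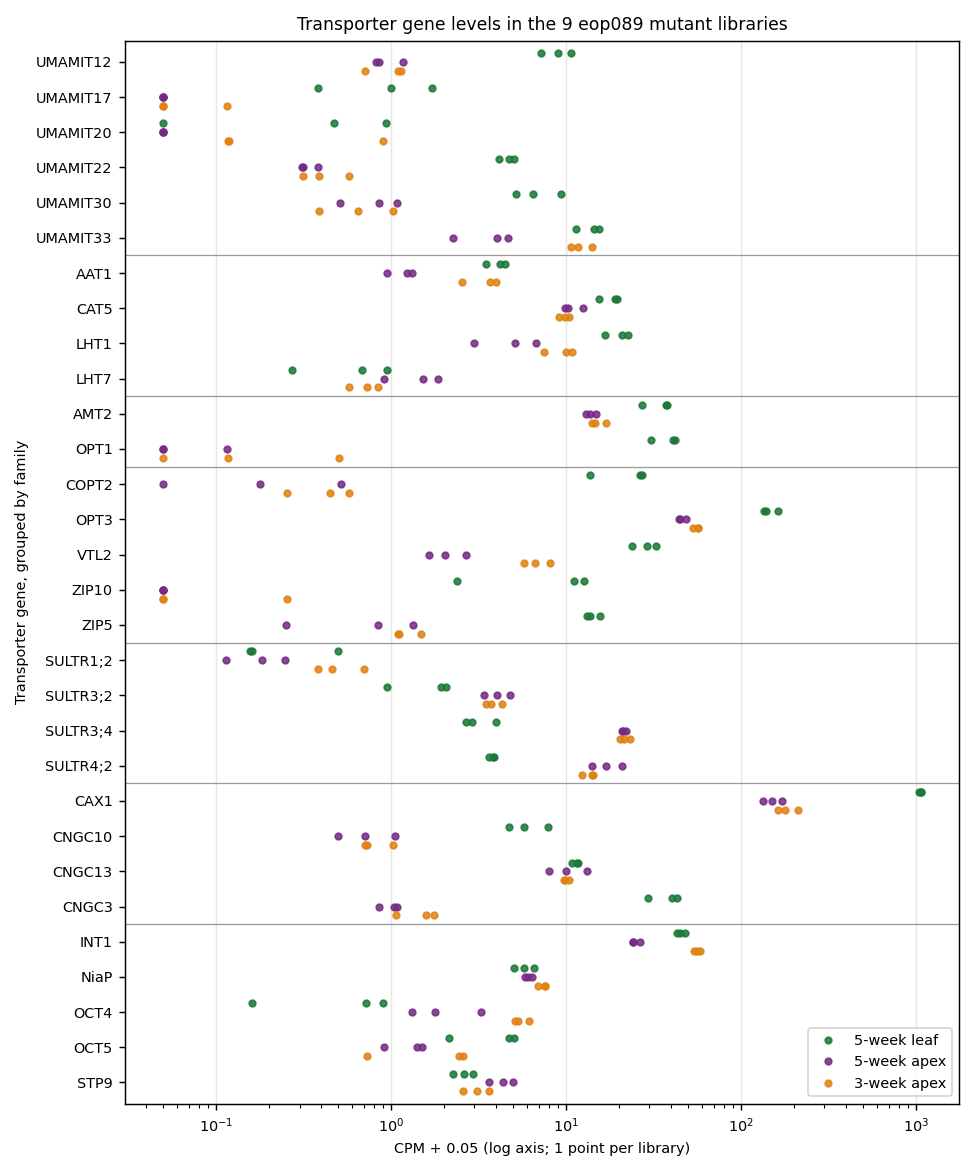
CPM plus 0.05 (x axis, log scale) of the 30 transporter genes (y axis, grouped by family) in the 9 mutant libraries, with 1 point per library and the group in colour. The leaf points lie right of all 6 apex points for 16 genes, such as CAX1 at 1044 to 1078 CPM, and left of them for SULTR3;2, SULTR3;4, SULTR4;2 and OCT4.

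Between organs of the mutant at 5 weeks, most of these genes were higher in the leaf than in the apex, although most of them were also listed lower in the mutant leaf than in its control. Of the 27 genes that passed the filter on low counts, 19 were higher in the leaf, 6 lower and 2 did not pass the test (edgeR's quasi-likelihood test, Benjamini-Hochberg adjusted p under 0.05). Over all 20633 genes tested 37.1% were higher and 42.0% lower (79.1% either way), and the median log2 fold change was 1.83 over the 27 genes and -0.10 over all genes. Scaled by total counts alone, the split was 16 higher and 8 lower for transporter genes and 4026 against 14239 in place of 7659 against 8657 for all genes, whose median moved to -0.93. Among genes listed lower in the mutant leaf, 16 of 19 tested transporter genes were higher in the leaf than in the apex, beside 67.5% of all 619 tested genes so listed, and 2 were lower, beside 13.7%. The lists share these leaf libraries, and COPT2, OPT1, UMAMIT22 and ZIP10 passed the filter through the leaf alone, as SULTR3;2, OCT4 and LHT7 did through the apex alone. For those 7 genes the filter favoured a difference between organs, so no p is given for them between organs and the counts above are a description. Of the 20 transporter genes that passed in each organ alone, 15 were higher in the leaf, 3 lower and 2 did not pass the test, beside 40.1% higher and 38.7% lower of the 17488 such genes. The handling markers HSP90.1 and TCH4, genes that respond to heat and touch, moved with the organ too, with a sum of 42.1 to 43.5 CPM in the leaf and 9.48 to 18.8 CPM at the 5-week apex (edgeR adjusted p = 6.13e-07 for TCH4, while HSP90.1 passed the filter through the leaf alone). Their part in the result was not tested.

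**Figure D3:**
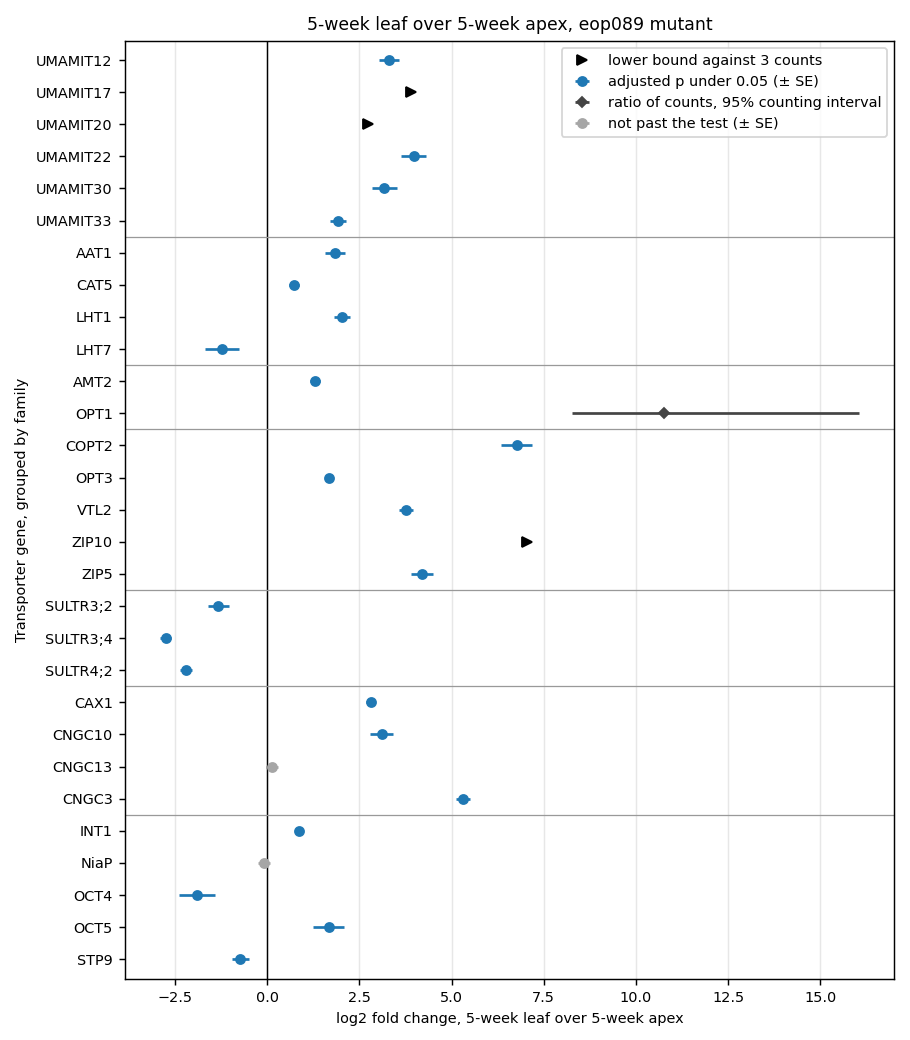
Log2 fold change of the 5-week leaf over the 5-week apex (x axis) per transporter gene (y axis, grouped by family). Circles are edgeR estimates with their SE, triangles lower bounds against 3 counts, and the diamond the OPT1 count ratio of 1732 with its 95% counting interval. The UMAMIT and metal genes all lie right of 0 and the 3 tested sulphate genes left of it, and SULTR1;2 is not shown.

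The UMAMIT genes had their highest mean in the leaf, and the 3 that passed the filter in each organ (UMAMIT12, UMAMIT30 and UMAMIT33) were higher there than at the 5-week apex. UMAMIT12 had 8.95, 10.6 and 7.14 CPM in the leaf and 0.774, 0.801 and 1.12 CPM at the 5-week apex, so that the leaf was 3.30 higher on the log2 scale (SE 0.26; edgeR adjusted p = 4.98e-09). UMAMIT22 had 4.09, 4.99 and 4.69 CPM in the leaf and 0.258, 0.334 and 0.264 CPM at the 5-week apex (log2 fold change 3.97, SE 0.34). Both genes were higher in each leaf library than in any apex library of either age. UMAMIT30 had 6.41, 9.35 and 5.13 CPM in the leaf and 1.03, 0.801 and 0.462 CPM at the 5-week apex (log2 fold change 3.17, SE 0.34; edgeR adjusted p = 2.56e-07). UMAMIT33 had 14.4, 11.4 and 15.5 CPM in the leaf, 4, 2.20 and 4.62 CPM at the 5-week apex and 11.7, 14.0 and 10.7 CPM at the 3-week apex. Its leaf and 3-week apex levels overlapped, and both lay above the 5-week apex, with a log2 fold change of 1.92 (SE 0.21) for the leaf over the 5-week apex (edgeR adjusted p = 3.35e-07).

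UMAMIT17 and UMAMIT20, which have neighbouring IDs, were too low to be tested. UMAMIT17 had 27 counts over the leaf libraries, 0 over the 5-week apex libraries and 1 over the 3-week apex libraries. Its leaf level was at least 15.0-fold higher than that of the 5-week apex, with 3 counts over the group standing for the 0. UMAMIT20 had 12 leaf counts, at least 6.66-fold above the same floor. At the 3-week apex UMAMIT20 had 15 counts, nearly all in replicate 1, with 0.848 CPM there against 0.0681 and 0.0665 CPM in replicates 2 and 3. Without that replicate its 3-week mean of 0.328 CPM was 0.0673 CPM, and without leaf replicate 1 its leaf mean of 0.436 CPM was 0.212 CPM and that of UMAMIT17 0.645 in place of 0.983 CPM. The sources used here do not say how reads matching both of these related genes were counted.

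Carriers that import amino acids, ammonium and peptides were mostly higher in the leaf. LHT1 had 22.6, 20.9 and 16.6 CPM in the leaf and 6.70, 2.94 and 5.09 CPM at the 5-week apex (log2 fold change 2.03, SE 0.22; edgeR adjusted p = 2.45e-07). AAT1 had 4.42, 4.14 and 3.46 CPM in the leaf and 0.902, 1.27 and 1.19 CPM at the 5-week apex (log2 fold change 1.83, SE 0.27; edgeR adjusted p = 1.19e-05). In neither gene did the groups overlap. AMT2 had 37.1, 37.9 and 27.0 CPM in the leaf and 13.6, 12.9 and 14.9 CPM at the 5-week apex (log2 fold change 1.30, SE 0.13; edgeR adjusted p = 6.63e-08). CAT5 averaged 18.0 ± 2.30 CPM in the leaf and 10.8 ± 1.41 CPM at the 5-week apex (SD, n = 3 each; log2 fold change 0.73, edgeR adjusted p = 6.42e-05), but by total counts its log2 fold change was -0.10. LHT7 had its higher values at the apex, with 0.221, 0.637 and 0.893 CPM in the leaf and 1.80, 1.47 and 0.859 CPM at the 5-week apex. The groups of LHT7 overlapped, and its log2 value was -1.23 (SE 0.46).

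The peptide transporter gene OPT1 was nearly absent from the apex counts. It had 41.0, 41.9 and 30.7 CPM in the leaf, 0, 0 and 0.0661 CPM at the 5-week apex and 0.457, 0 and 0.0665 CPM at the 3-week apex. Over the groups that was 1041 counts in the leaf, 1 at the 5-week apex, in replicate 3, and 8 in 3-week apices. Without 3-week apex replicate 1 its mean there was 0.0333 in place of 0.174 CPM. The ratio of leaf to 5-week apex was 1732, with a 95% exact counting interval from 310 to 68476 that covers counting error only.

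For all 5 metal genes of the name rule, leaf levels lay above those of the apex libraries, as for 33.5% of all genes tested. COPT2 and ZIP10 passed the filter through the leaf alone. ZIP5, VTL2 and OPT3, which passed it in each organ, were higher than at the 5-week apex. The iron transporter gene VIT1, which was left out, went the other way. It had no leaf count, but 7.47 to 10.8 CPM in older and 13.1 to 16.2 CPM in younger apices. HMA4, a heavy metal ATPase gene outside the rule, had 18.3 to 23.8 CPM in the leaf and 8.45 to 15.3 CPM in apices. COPT2 had 26.6, 27.1 and 13.6 CPM in the leaf and 0.129, 0.467 and 0 CPM at the 5-week apex (log2 fold change 6.76, SE 0.43), or 8.22 on the log2 scale without 5-week apex replicate 2, which held most of its 9 apex counts. ZIP5 had 13.7, 15.7 and 13.2 CPM in the leaf and 1.29, 0.200 and 0.793 CPM at the 5-week apex (log2 fold change 4.20, SE 0.30; edgeR adjusted p = 1.38e-09), or 4.80 without 5-week apex replicate 1. For both genes every leaf library lay far above every apex library. ZIP10 had 12.7, 11 and 2.34 CPM in the leaf, no count at the 5-week apex and 3 counts at the 3-week apex. Its leaf level was at least 133-fold higher than that of the 5-week apex, again with 3 counts over the group for the 0. VTL2 had 29.2, 23.7 and 32.5 CPM in the leaf and 2.64, 1.60 and 1.98 CPM at the 5-week apex (log2 fold change 3.77, SE 0.19; edgeR adjusted p = 1.10e-11). OPT3 had 135, 163 and 139 CPM in the leaf and 44.1, 48.4 and 44.7 CPM at the 5-week apex (log2 fold change 1.67, SE 0.08; edgeR adjusted p = 4.79e-12).

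The sulphate transporter genes SULTR3;4 and SULTR4;2 were lower in the leaf. SULTR3;4 had 2.65, 2.87 and 3.91 CPM in the leaf and 21.0, 21.2 and 21.9 CPM at the 5-week apex (log2 fold change -2.76, SE 0.14; edgeR adjusted p = 1.46e-11). SULTR4;2 had 3.76, 3.82 and 3.57 CPM in the leaf and 14.1, 20.9 and 16.8 CPM at the 5-week apex (log2 fold change -2.21, SE 0.17; edgeR adjusted p = 4.55e-09). Of the 19 tested transporter genes listed lower in the mutant leaf, these 2 were the only ones called lower in the leaf than in the apex on the TMM scale. By total counts NiaP was called lower too. SULTR3;2 averaged 1.60 ± 0.613 CPM in the leaf and 4.03 ± 0.711 CPM at the 5-week apex (SD, n = 3 each; log2 fold change -1.33). SULTR1;2 had 6 counts in the leaf, 6 at the 5-week apex and 21 in 3-week apices, too few for the filter, and without leaf replicate 3 its leaf mean of 0.221 CPM was 0.108 CPM.

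CAX1 had 1078, 1067 and 1044 CPM in the leaf and 172, 134 and 151 CPM at the 5-week apex (log2 fold change 2.80, SE 0.11; edgeR adjusted p = 3.47e-13). The leaf libraries of CAX1 differed little among themselves. CNGC3 had 43.1, 40.2 and 29.6 CPM in the leaf and 1.03, 0.801 and 0.991 CPM at the 5-week apex (log2 fold change 5.31, SE 0.20; edgeR adjusted p = 3.62e-13). CNGC10 had 7.84, 5.73 and 4.69 CPM in the leaf and 0.451, 1.00 and 0.661 CPM at the 5-week apex (log2 fold change 3.10, SE 0.31; edgeR adjusted p = 1.19e-07). Unlike those of its relatives, the CNGC13 levels of the organs overlapped, at 11.3 ± 0.456 CPM in the leaf and 10.4 ± 2.64 CPM at the 5-week apex (SD, n = 3 each). Its log2 fold change of 0.13 had an interval of 2 SE from -0.19 to 0.45 (edgeR adjusted p = 0.462), passed without 5-week apex replicate 2 (0.33, adjusted p = 0.0402) and was -0.70 by total counts.

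The carriers of sugars, inositol and organic cations were mixed. INT1 averaged 45.2 ± 2.45 CPM in the leaf and 24.9 ± 1.42 CPM at the 5-week apex (SD, n = 3 each; log2 fold change 0.86, edgeR adjusted p = 1.98e-08), but 0.03 on the log2 scale by total counts (adjusted p = 0.705). OCT5 averaged 3.93 ± 1.59 CPM in the leaf and 1.22 ± 0.314 CPM at the 5-week apex (SD, n = 3 each; log2 fold change 1.67, edgeR adjusted p = 0.00164), and did not pass by total counts (adjusted p = 0.0699). Both calls thus depended on the scaling. OCT4 had 0.110, 0.850 and 0.670 CPM in the leaf and 1.74, 1.27 and 3.24 CPM at the 5-week apex (log2 fold change -1.91, SE 0.49). STP9 averaged 2.55 ± 0.346 CPM in the leaf and 4.27 ± 0.686 CPM at the 5-week apex (SD, n = 3 each; log2 fold change -0.74, edgeR adjusted p = 0.00811). STP9 and SULTR3;2 were therefore listed higher in the mutant leaf than in its control while having a lower mean in the mutant leaf than in the mutant apex. NiaP averaged 5.71 ± 0.754 CPM in the leaf and 6.05 ± 0.271 CPM at the 5-week apex (SD, n = 3 each), a log2 difference of -0.08 with an interval of 2 SE from -0.40 to 0.24 (edgeR adjusted p = 0.652). By total counts it was lower in the leaf, at -0.91 (adjusted p = 5.79e-05).

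**Figure D4:**
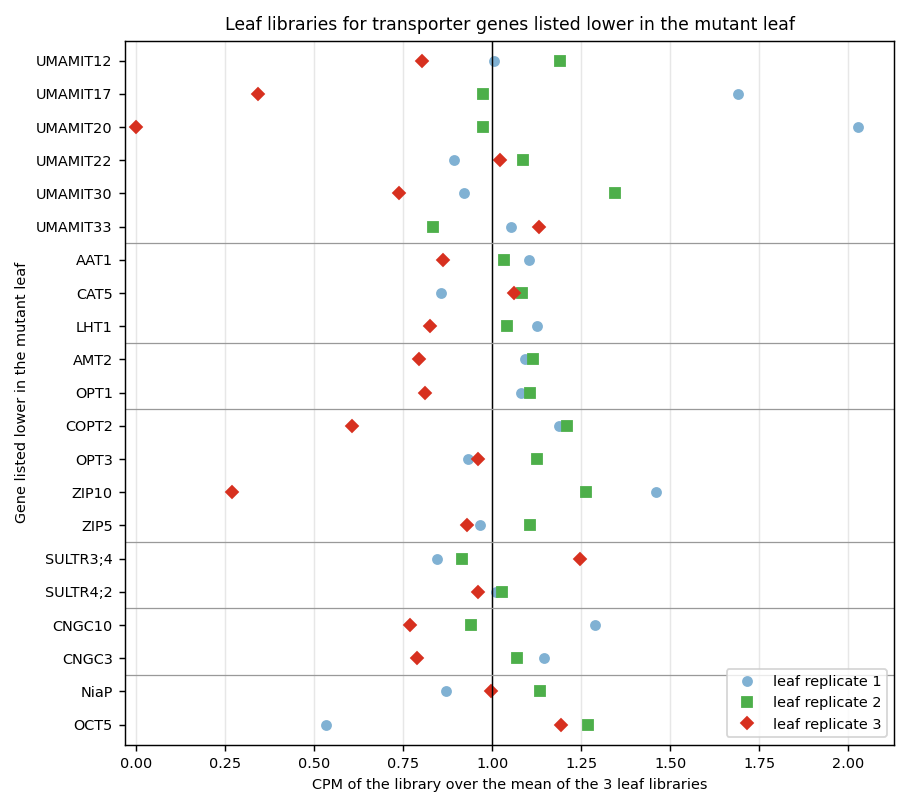
CPM of each leaf library over the mean of the 3 leaf libraries (x axis) for the 21 transporter genes listed lower in the mutant leaf (y axis, grouped by family), with 1 point per library. Replicate 3 is far left for ZIP10 (2.34 CPM), COPT2 (13.6 CPM), UMAMIT17 and UMAMIT20, and right of both others for SULTR3;4 and UMAMIT33.

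Leaf replicate 3 stood low for many of the genes listed lower in the leaf. Among 20 such transporter genes, those counted in all 3 leaf libraries, it held the minimum for 13, and its values had a median of 0.786 relative to the other replicates' mean. Of the whole list it was the lowest for 527 of 732 genes (72.0%), against 35.1% of all tested genes. The list was made with these same leaf libraries, and a low library could itself help to place genes on it. These shares are therefore a description. ZIP10 at 2.34 CPM against 12.7 and 11 CPM, and COPT2 at 13.6 CPM against 26.6 and 27.1 CPM, were examples with wide gaps. The epidermal marker PDF1 was higher in the same library, at 39.2 CPM against 4.64 and 2.87 CPM, as were the stomatal lineage marker TMM at 6.25 CPM against 2.76 and 1.91 CPM and the xylem markers LAC4 and LAC17, at 69.7 and 69.3 CPM against 36.6 to 45.3 CPM. Other markers of the same tissues went the other way in that library. The guard cell marker KAT1 was at 2.57 CPM against 3.76 and 3.29 CPM. The phloem marker SUC2 was at 302 CPM against 317 and 335 CPM. The part of these markers in the result was not tested. Without leaf replicate 3 the counts between leaf and apex were again 19 higher and 6 lower, and the log2 fold change of COPT2 was 7.02.

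Some transporter genes were lower at the older apex. Of the 27 tested genes 8 were lower at 5 than at 3 weeks and 2 higher, and 17 did not pass the test (edgeR, adjusted p under 0.05). Among all 20633 tested genes 21.0% were lower and 19.1% higher (40.1% either way), and the median log2 fold change was -0.28 over the 27 genes and 0.01 over all genes. The split of transporter genes was 3 higher and 6 lower by total counts, 0 and 8 with RLE size factors, 1 and 9 without the filter and 0 and 9 in DESeq2. For all genes it was 3933 higher against 4332 lower, 5793 against 2964 by total counts and 2706 against 4552 in DESeq2. Of the 5 transporter genes listed higher in the mutant at the 3-week apex 4 were lower at 5 weeks, beside 78.2% of all 238 tested genes so listed, and the lists share the 3-week libraries.

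**Figure D5:**
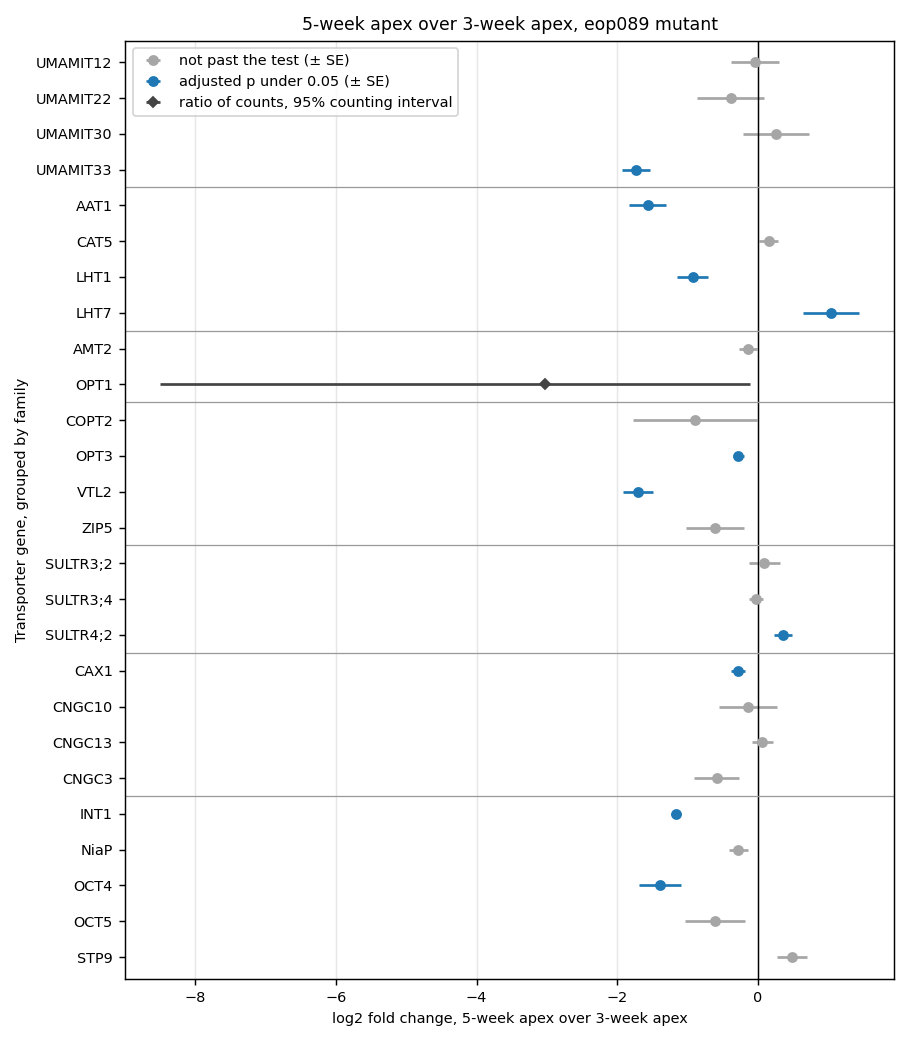
Log2 fold change of the 5-week over the 3-week apex (x axis) per transporter gene (y axis, grouped by family), as edgeR estimates with SE, and for OPT1 as a ratio of counts with its 95% counting interval. UMAMIT33, VTL2, AAT1, OCT4, INT1 and the OPT1 ratio lie below -1, LHT7 lies at 1.04, and the untested genes and ZIP10 are not shown.

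UMAMIT33 fell to 3.61 ± 1.26 CPM at the 5-week apex, against 12.1 ± 1.71 CPM at the 3-week apex (SD, n = 3 each; log2 fold change -1.74, SE 0.20; edgeR adjusted p = 8.11e-06). VTL2 fell to 2.08 ± 0.527 CPM at 5 weeks, against 8.02, 5.72 and 6.65 CPM in the 3-week libraries (log2 fold change -1.71, SE 0.21; edgeR adjusted p = 1.35e-05). AAT1 fell to 1.12 ± 0.192 CPM at 5 weeks, against 2.48, 3.61 and 3.92 CPM in the 3-week libraries (log2 fold change -1.57, SE 0.26; edgeR adjusted p = 2.35e-04). None of these groups overlapped, so that a UMAMIT gene, a relative of vacuolar iron transporters and a carrier of basic amino acids were all low at the older apex. INT1 had 24.0, 24.0 and 26.5 CPM at 5 weeks and 56.4, 58.2 and 53.8 CPM at 3 weeks (log2 fold change -1.17, SE 0.07; edgeR adjusted p = 1.23e-08). OCT4 averaged 2.08 ± 1.03 CPM at 5 weeks and had 6.07, 5.24 and 5.05 CPM in the 3-week libraries (log2 fold change -1.39, SE 0.30; edgeR adjusted p = 0.00178). LHT1 averaged 4.91 ± 1.89 CPM at 5 weeks and had 7.44, 10.8 and 9.98 CPM in the 3-week libraries (log2 fold change -0.93, SE 0.22; edgeR adjusted p = 0.00378).

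Smaller differences with age rested on the settings. OPT3 averaged 45.7 ± 2.36 CPM at 5 weeks and 55.6 ± 1.81 CPM at 3 weeks (SD, n = 3 each; log2 fold change -0.28, edgeR adjusted p = 0.00951), and did not pass by total counts (adjusted p = 0.0951). CAX1, with a log2 fold change of -0.28 (edgeR adjusted p = 0.0412) and overlapping groups, did not pass by total counts (adjusted p = 0.163) or without any of 6 libraries: 3-week apex replicates 1 and 3, 5-week apex replicates 2 and 3, and leaf replicates 1 and 2 (adjusted p from 0.0541 to 0.249). The vacuolar sulphate exporter gene SULTR4;2 was at 14.1, 20.9 and 16.8 CPM at 5 weeks and 12.3, 14.3 and 14.1 CPM at 3 weeks (log2 fold change 0.35, edgeR adjusted p = 0.0462). LHT7 had a log2 fold change of 1.04 (edgeR adjusted p = 0.0483) and was listed lower in the mutant at 5 weeks. Neither of the higher calls held with RLE size factors (adjusted p = 0.0756 for SULTR4;2 and 0.0569 for LHT7) or in DESeq2 (0.168 and 0.148). Leaving out 8 of the 9 libraries in turn, all but leaf replicate 3, cost at least 1 of these higher calls.

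Of the 19 transporter genes higher in the leaf, 12 did not pass the test between the apex ages (63.2%), beside 59.9% of all genes tested. These 12 include COPT2, OPT1, UMAMIT22 and ZIP10, which passed the filter through the leaf alone. With no more than 17 counts over either apex group, those genes could hardly pass between the ages. UMAMIT12 averaged 0.899 ± 0.194 CPM at 5 weeks and 0.933 ± 0.233 CPM at 3 weeks (SD, n = 3 each), a log2 difference of -0.05 with an interval of 2 SE from -0.74 to 0.63 (edgeR adjusted p = 0.918). Among the others, SULTR3;4 averaged 21.3 ± 0.482 CPM at 5 weeks and 21.7 ± 1.5 CPM at 3 weeks (SD, n = 3 each), and its interval of 2 SE from -0.22 to 0.17 lay around -0.03 (edgeR adjusted p = 0.856). For CNGC13, listed higher in the mutant at 3 weeks, the interval ran from -0.24 to 0.37 around 0.06 (edgeR adjusted p = 0.774). Such a p does not show that the ages are alike. ZIP5 did not pass either (edgeR adjusted p = 0.249), except without 5-week apex replicate 1, where its log2 fold change was -1.23 (adjusted p = 0.0338). STP9 was at 0.48 (edgeR adjusted p = 0.0766) and passed by total counts, at 0.59 (adjusted p = 0.034). For ZIP10 both ages held no more than 3 counts. OPT1 had 1 count at 5 weeks and 8 at 3 weeks, a ratio of 0.123 with a 95% exact counting interval from 0.00278 to 0.92. That interval covers counting error only, and most of the 3-week counts lay in replicate 1. OPT1 did not pass the test between the ages (edgeR adjusted p = 0.14).

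Markers of several cell types moved with age too, and all 3 vein markers with a paired ID, of 5 in the lists, were lower at 5 weeks. The phloem marker SUC2 spanned 8.67 to 15.5 CPM at the 5-week apex and 23.6 to 29.4 CPM at the 3-week apex, and the xylem markers LAC4 and LAC17 together 12.4 to 27.4 CPM and 31.1 to 33.2 CPM. Of the 5 photosynthesis markers, CA1 was lower at 5 weeks (edgeR adjusted p = 3.28e-05), LHCB2.1 did not pass (adjusted p = 0.307) and the others had no paired ID. The stomatal lineage marker TMM, the dividing-cell marker CYCB1;3 and the handling marker TCH4 were also lower at 5 weeks (edgeR adjusted p = 0.00305, 0.00746 and 0.00872), while PDF1, KAT1 and HSP90.1 did not pass. The 3-week means of CA1 and LHCB2.1 were 0.195% and 3% of their leaf means, and that of CA1 was 9.23 in place of 16.9 CPM without 3-week apex replicate 1. For the vein markers SUC2, LAC4 and LAC17 the 3-week means were 8.45%, 27.1% and 36% of the leaf means, and for TCH4 54.5%. Those of TMM and CYCB1;3 were 478% and 692%. The 8 transporter genes lower at 5 weeks ranged from 17.3% for CAX1 to 1004% for OCT4. Among these, UMAMIT33 stood at 88.3%, AAT1 at 83.3%, LHT1 at 46.9% and VTL2 at 23.9% of their leaf means at 3 weeks. The part of these markers in the difference with age was not tested. In bulk tissue, fewer cells of a type and less RNA per cell cannot be told apart.

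The order of the group means is given as a description. The leaf mean was the highest of the 3 groups for 21 of the 30 genes, the 3-week apex mean for 5 and the 5-week apex mean for 4. No share over all genes is at hand for this order. The leaf lists, with 21 lower and 3 higher, supplied most of the 30 genes, and UMAMIT17, UMAMIT20 and SULTR1;2 were too low to be tested. All 3 leaf libraries lay above all 6 apex libraries for 15 of the 27 tested genes, beside 33.5% of all genes tested, and below them for 4, beside 35.6%. Of the 15, COPT2, OPT1, UMAMIT22 and ZIP10 passed the filter through the leaf alone. Of the 4, SULTR3;2 and OCT4 passed it through the apex alone. These counts are therefore a description. UMAMIT20, UMAMIT33, AAT1, CNGC13 and OCT5 had the highest mean in the leaf but overlapped the apex. INT1 was the highest at the 3-week apex, with no overlap with the leaf at 44.8, 42.9 and 47.8 CPM.

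Transport genes of the lists whose names lack those words are described by a second name rule, which also takes in the 4 genes left out. It found 17 genes, and 1 of them, BCCP2, encodes a subunit of a lipid synthesis enzyme and no transporter. Of 15 tested between leaf and 5-week apex 10 were higher and 3 lower, beside 37.1% and 42.0% of all genes. The 3 lower genes were VIT1, AAP3 and BCCP2. VIT1 had no leaf count and, like AAP3, could pass the filter only through the apex, so these counts are a description. Between the apex ages 1 was higher and 6 lower, beside 19.1% and 21.0% of all genes. The sucrose carrier gene SUC1 had 200, 217 and 162 CPM in the leaf and 6.64, 6.34 and 8.79 CPM at the 5-week apex (log2 fold change 4.73, SE 0.14; edgeR adjusted p = 1.78e-14). The purine permease genes PUP7 and PUP14 were also higher in the leaf, by 3.03 and 2.61 on the log2 scale (edgeR adjusted p = 1.25e-11 and 5.78e-12). The amino acid permease gene AAP3, which passed the filter through the apex alone, averaged 1.54 ± 0.775 CPM in the leaf and 9.44 ± 0.625 CPM at the 5-week apex (SD, n = 3 each). These examples were chosen after their values were seen. In the mutant leaf against its control, SUC1, PUP7, PUP14 and AAP3 stood at 0.493, 0.29, 0.337 and 0.349 in the authors' deposited table.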

How the data were processed

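The deposited count table holds whole read counts per gene for 9 mutant libraries. STAR, DESeq, DESeq2 and HTSeq 0.5.4p1 appear in the submitters' processing notes without a role or order, and no build was given in the sources used here. Polyadenylated RNA was made into directional libraries and read as single reads, per the labels' protocols. The 5 rows without a gene, 10.7% to 19.2% of the table's counts per library, were left out. Per the file headers the 6 lists give, as made by the authors, a fold change (ratio of mutant to control mean), its log2 value, an adjusted p-value and the mean signal in normalized counts. Their 12 columns of means over the control, or over mutant and control together, were not used.

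edgeR 4.0.16 (R 4.3.3) tested the counts by its quasi-likelihood F-test, fitting all 3 groups together with TMM scaling. The filter kept genes at about 0.774 CPM or more in at least 3 libraries, 20633 genes in all. SE was taken as |log2 fold change| divided by √F. RLE and total-count scaling, no filter, a replicate block, DESeq2 1.42.0 and each library left out were tried. The procedure was tested on simulated data. Tables used Python 3.11.15. Genes were named where they were listed in 2 settings, changed by at least 2 on the log2 scale without overlap, or were among the 5 most abundant of a group. Values of the remaining genes were added by family after they were seen. Members and gene lists were chosen with earlier results of these data known. Positions and sequences were not used here.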

Additional observations from a re-analysis of the deposited data

How the results depend on the processing

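Between leaf and 5-week apex the number of transporter genes past the test was 25, and 24 to 27 under the other scalings, tool, filter and block, and from 24 to 26 with 1 library left out. By total counts CAT5 stood at -0.10 and CNGC13 at -0.70 on the log2 scale, against 0.73 and 0.13. By that scaling the median of all genes was -0.93 on the log2 scale, against -0.10, and NiaP kept its sign, at -0.91 against -0.08. Between the apex ages the count was 10, with 8 to 10 under those settings and from 7 to 10 with 1 library left out. The 2 higher calls became 0 with RLE size factors, 0 in DESeq2, 1 without the filter on low counts and 1 under the replicate block, and from 0 to 2 with 1 library left out. At an unadjusted p under 0.05, 3 genes were higher in edgeR, 2 with RLE size factors and 0 in DESeq2. The cause was not tested.

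No sign was seen that replicate numbers pair the samples, although correlations near 0 cannot exclude a pairing. Correlations of deviations between same-numbered libraries ran from -0.0771 to 0.00757 over genes, and not every library correlated best with its own number. With the replicate number as a block, 25 transporter genes passed between organs and 9 between ages, LHT7 being lost with an adjusted p = 0.0794 in edgeR. With 1 library left out, its group is assumed to vary like the others. At this depth UMAMIT17, UMAMIT20 and SULTR1;2 could not be tested.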
